A study of Homo sapiens with 4 samples.

Results

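The proteasome subunit genes are here the 48 human genes whose symbols run from PSMA to PSMG with a number. They were taken as every symbol of that form among the 62778 named entries of the gene table. In all, 61 entries name at least 1 of them, and each gene was represented by its entry with the highest mean count. The genes were sorted by the part of the particle their proteins form or by how they act on it. This gave 8 core alpha genes, 7 core beta genes, 4 immune and thymus beta genes, 9 base genes and 8 lid genes. There were also 7 assembly genes and 5 genes of activators and an inhibitor.

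RNA was sequenced from K562 cells, an established human erythroleukemia line, made to overexpress U2AF1_S34F, a mutant of the small subunit of the factor that recognises 3′ splice sites. There were 2 libraries from cells given the solvent DMSO and 2 from cells given SF1-8, a compound directed at the U2AF homology motif domain of U2AF1, at 30 µM for 48 h. All 4 libraries carry the mutant, so no wild-type control enters the comparison, and the labels do not say whether libraries 1 and 2 of a group came from separate cultures. P-values therefore measure the spread between these libraries, which may be technical.

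The proteasome is the cell's main machine for breaking down proteins tagged with ubiquitin. Its core is a barrel of stacked rings, with outer rings of alpha subunits that gate the entrance and inner rings of beta subunits, of which PSMB5, PSMB6 and PSMB7 cut proteins. A cap made of a base of ATPases, which unfolds the substrate, and a lid, which removes ubiquitin, sits on the end of the barrel. Dedicated chaperones build the core and the base, and other activators can replace the cap. Many of these genes are turned on together by the factor encoded by NFE2L1, which binds antioxidant response elements when proteasomes are inhibited, and blood cancers are treated with inhibitors of PSMB5.

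Windows of promoter sequence, from 250 bases before to 50 after a start site, were matched in RefSeq for 42 of the 48 symbols, giving 51 windows. The letters TGACNNNGC, the core of the antioxidant response element, were found on either strand in 15 of the 51 windows (29.4%), against 13.3% of the 35116 windows of all genes. CCGGAAG, a form of the site bound by ETS factors, was also present in 15 of the 51 (29.4%), against 10.3% of all windows. A CCAAT box was present in 39.2% of the proteasome windows and 34.6% of all windows. The median GC content was 62.0% in the proteasome windows and 58.7% in all windows, and its part in these shares was not tested. A match of letters is a description and not a bound site. The stretches below are matches in subunit and assembly genes that, together with 20 bases on either side, lie wholly before the start site and outside every annotated exon, printed 5′ to 3′ on the strand of the gene (RefSeq, GRCh38.p14), with the matched letters in capitals. They show the shared element in a core gene (PSMB3), a lid gene (PSMD12) and a base chaperone (PSMD9), and the ETS letters in the base gene PSMC6 and in PSMD9.

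PSMB3, antioxidant response element, chr17:38752617-38752665, plus strand: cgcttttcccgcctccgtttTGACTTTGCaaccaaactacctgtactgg
PSMD12, antioxidant response element, chr17:67366714-67366762, minus strand: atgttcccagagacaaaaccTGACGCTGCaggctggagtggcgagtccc
PSMD9, antioxidant response element, chr12:121888668-121888716, plus strand: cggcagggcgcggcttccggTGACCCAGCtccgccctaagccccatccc
PSMD9, antioxidant response element on the other strand, chr12:121888621-121888669, plus strand: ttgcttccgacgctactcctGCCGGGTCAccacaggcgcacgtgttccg
PSMC6, ETS site, chr14:52707073-52707119, plus strand: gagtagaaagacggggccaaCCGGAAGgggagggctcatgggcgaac
PSMD9, ETS site on the other strand, chr12:121888661-121888707, plus strand: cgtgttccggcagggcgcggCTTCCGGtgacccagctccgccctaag

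The matches begin 104 bases before the start site in PSMB3, 165 in PSMD12 and 107 in PSMC6. In PSMD9 the ETS letters begin 109 bases before the start and run directly into the antioxidant response element that begins at 102. A relation between these letters and the values with SF1-8 was not tested.

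The library totals ran from 45522905 to 67554610 counts, with DMSO 1 the smallest. The proteasome entries took between 0.546% and 0.607% of the counts of named entries in each library. The counts are estimates, with 4 the commonest value above 0, so no counting error was computed. The cells carried the erythroid genes of K562, with GATA1 between 75.9 and 79.1 FPKM, and the B cell genes CD79A and MS4A1 were at 0 or below 0.1 FPKM in every library. Of 6 fibroblast and stroma genes, 6 were lower in FPKM in both SF1-8 libraries than in both DMSO libraries. By counts scaled to library size, 18.1% of all tested entries were so. DCN, LUM and PDGFRB were near the floor, with 0.0815, 0.170 and 0.0636 FPKM in DMSO 1, the highest library of each. The summed FPKM of the 6 genes was 9.79, 4.64, 2.27 and 0.558 in DMSO 1, DMSO 2, SF1-8 1 and SF1-8 2. The 4 T cell genes summed to between 4.25 and 6.14 FPKM, nearly all from CD3D, and the 4 monocyte genes to between 30.0 and 41.7 FPKM, mostly from an entry with CD68 that names 8 genes. The part of these cell markers in the proteasome results was not tested.

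No proteasome subunit gene passed the test between SF1-8 and DMSO. Of the 48 genes, 47 entered edgeR's quasi-likelihood test, with p-values adjusted over all entries by the Benjamini-Hochberg method, and 0 of them had an adjusted p under 0.05 (the smallest was 0.970), where 0.042% of all 26167 tested entries did. At an unadjusted p under 0.05 there were 2, PSMB2 and PSMB3, both higher with SF1-8, and DESeq2 gave 0. Over all entries this unadjusted threshold was passed by 4.33%, with 1.78% higher and 2.54% lower, so the members' count was near the background. The log2 fold change was above 0 for 28 and below 0 for 19 of the 47, but when FPKM values were rescaled to TPM, which moved the median of all entries to -0.14, it was above 0 for 4 and below 0 for 41 of the 45 that passed the filter on FPKM. The median log2 fold change was 0.03 over the members and -0.01 over all tested entries. The 28 genes above 0 in the test include the entry taken for PSMA8, which is described below.

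The differences of the proteasome genes were small. The median size of the log2 fold change, without its sign, was 0.074 over the members and 0.216 over all tested entries. The 95% interval of the fold change lay within 1.5-fold of no change for 39 of the 47 members, against 30.7% of all entries. Their median standard error was 0.097 on the log2 scale, against 0.331 over all entries, and its part in the narrow intervals was not tested. Between the 2 DMSO libraries the median gap was 0.102 for members and 0.306 for all entries, and between the 2 SF1-8 libraries it was 0.075 and 0.262. Normalised CPM are counts scaled to the TMM-adjusted size of each library. On this scale the SF1-8 pair lay wholly above the DMSO pair for 9 members and wholly below it for 2. Over all entries these shares were 17.3% and 18.1%. The 9 members include the entry taken for PSMA8.

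**Figure D1:**
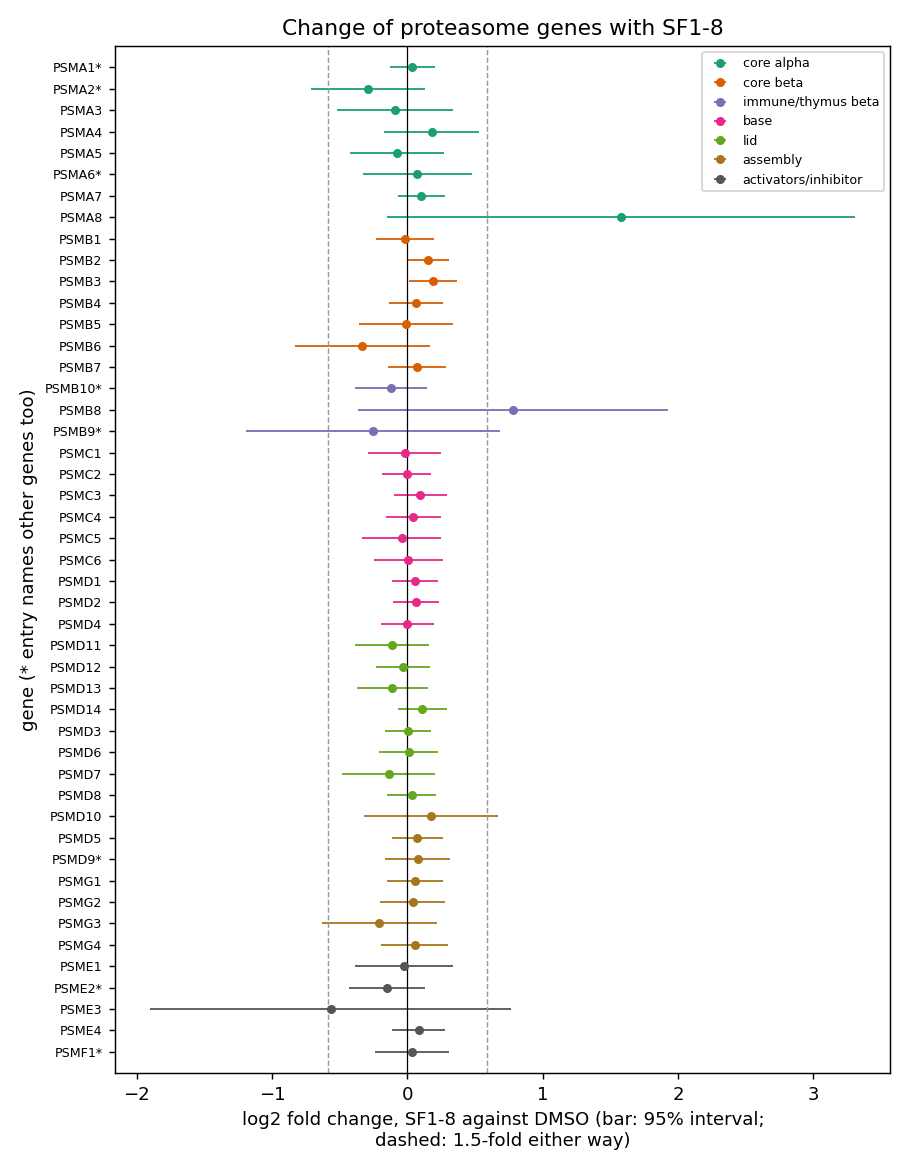
Log2 fold change of each of the 47 tested proteasome genes, SF1-8 against DMSO, on the horizontal axis (edgeR, 2 libraries a group), with 95% intervals as bars, genes in rows, colours for the groups of subunits and dashed lines at 1.5-fold either way. The base and lid genes sit close to 0 with intervals inside the dashed lines, while the widest intervals belong to the PSMA8 entry, PSME3, PSMB8 and PSMB9.

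The core alpha genes encode the outer rings of the barrel, and their 8 entries had a median log2 fold change of 0.06, with 0 at an unadjusted p under 0.05. PSMA1 (alpha6) had 12.7, 12.7, 12.6 and 13.0 FPKM in DMSO 1, DMSO 2, SF1-8 1 and SF1-8 2. These 4 values are almost level and the groups overlap. This gave a log2 fold change of 0.04 (standard error 0.065, unadjusted p = 0.590, adjusted p = 0.971, edgeR), with a 95% interval from -0.13 to 0.20. The PSMA1 entry, on chromosome 11 of GRCh38 from 14443440 to 14643635, also names COPB1, a coat protein gene next to it, and AC018523, so its value is a sum and says nothing of isoforms of PSMA1.

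The other ring members were level or varied between libraries of 1 group. PSMA7 (alpha4), the most abundant alpha gene, had 79.5 and 74.1 FPKM in the DMSO libraries and 79.2 and 82.7 in the SF1-8 libraries. On the scale of normalised CPM both SF1-8 libraries of PSMA7 were above both DMSO libraries, with a log2 fold change of 0.10. Mean FPKM over the 4 libraries was 22.5 for PSMA3 (alpha7), 22.4 for PSMA5 (alpha5) and 19.9 for PSMA4 (alpha3). PSMA2 (alpha2) averaged 10.6 FPKM and PSMA6 (alpha1) 6.45 FPKM. Both stand in entries that name other genes, so each FPKM is taken over the reads and length of all the genes named. PSMA2, PSMA3 and PSMA4 were higher in DMSO 1 than in DMSO 2 by 0.46, 0.48 and 0.39 on the log2 scale, gaps larger than any of their differences between groups.

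The entry that stands for PSMA8, a testis form of alpha4, is not a measurement of that gene. It lies on chromosome 18 from 26167866 to 26170621 on the minus strand, inside an intron of PSMA8, which is on the plus strand, and it touches no exon of it. Its FPKM was 1.64 and 1.45 in the DMSO libraries, 7.35 in SF1-8 1 and 1.66 in SF1-8 2. Only SF1-8 1 stands apart, and SF1-8 2 is just above the DMSO libraries. The fitted log2 difference was 1.58 (standard error 0.679, unadjusted p = 0.0660, adjusted p = 0.970, edgeR), and it was 0.13 without SF1-8 1 and 2.29 without SF1-8 2. The entry on the strand and exons of PSMA8 had a count of 0 in all 4 libraries. Without the intronic entry the median of the core alpha genes was 0.04.

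The core beta genes hold the 2 smallest p-values among the proteasome genes. PSMB3 (beta3), a non-catalytic subunit of the inner rings, had 100.1 and 97.7 FPKM with DMSO and 109.2 and 112.1 FPKM with SF1-8. Both SF1-8 libraries were above both DMSO libraries, and the libraries within each group lay close together. The log2 fold change of PSMB3 was 0.19 (standard error 0.068), a 1.14-fold difference, with an unadjusted p of 0.0378 and an adjusted p of 0.970 (edgeR). PSMB2 (beta4), which is also non-catalytic, had 59.2 and 57.3 FPKM with DMSO and 63.6 and 63.7 FPKM with SF1-8. The groups again did not overlap. The estimate of the log2 fold change was 0.16 (standard error 0.061), a 1.11-fold difference, with an unadjusted p of 0.0479 and an adjusted p of 0.970 (edgeR). With FPKM rescaled to TPM, beside the shift of -0.14 in the median of all entries, PSMB3 was at 0.028 and PSMB2 at -0.0056.

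None of the 3 standard catalytic subunits passed the test. PSMB5 (beta5), the chymotrypsin-like subunit and the target of clinical inhibitors, had 61.2 and 69.7 FPKM with DMSO and 57.6 and 70.2 FPKM with SF1-8. In each group library 2 was the higher, and the groups overlap fully. In the fit the log2 fold change came to -0.01 (standard error 0.137, unadjusted p = 0.943, adjusted p = 0.997, edgeR), with a 95% interval from -0.36 to 0.34, and its sign turned when DMSO 2 or SF1-8 1 was left out. PSMB7 (beta2), the trypsin-like subunit, had 63.0 and 66.6 FPKM with DMSO and 65.8 and 68.3 FPKM with SF1-8. These ranges overlap, with a log2 fold change of 0.07 (standard error 0.084, unadjusted p = 0.421, edgeR). PSMB6 (beta1), the caspase-like subunit, had 32.0 and 35.0 FPKM with DMSO and 30.8 and 21.5 FPKM with SF1-8. SF1-8 2 is the low library, while SF1-8 1 is near the DMSO libraries and overlaps them in normalised CPM. The log2 fold change of PSMB6 was -0.33 (standard error 0.195, unadjusted p = 0.147, adjusted p = 0.970, edgeR), and it was -0.09 without SF1-8 2 and -0.62 without SF1-8 1 (unadjusted p = 0.00893, adjusted p = 0.639).

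The remaining beta genes, PSMB1 (beta6) and PSMB4 (beta7), had mean FPKM values of 73.5 and 60.8 and log2 fold changes of -0.02 and 0.06. A second entry under the name of PSMB5, on chromosome 14 from 23024451 to 23024986 within an intron, had 1.44 and 1.53 FPKM with DMSO and 0.436 and 0.467 FPKM with SF1-8. This gave a log2 fold change of -1.66 (standard error 0.434, unadjusted p = 0.0117, adjusted p = 0.970, edgeR), and it rests on counts between 20 and 67. This entry was named after its values were seen, and none of the other 11 tested secondary entries of proteasome genes had an unadjusted p under 0.05.

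Of the immune beta subunits, which interferon induces and which replace the catalytic subunits in immune cells, PSMB8 and PSMB9 were scarce here. PSMB8 (beta5i) had 0.108 and 0.173 FPKM with DMSO and 0.293 and 0.203 FPKM with SF1-8. Both SF1-8 libraries were above both DMSO libraries, at counts between 23 and 87. The fitted log2 difference was 0.78 (standard error 0.449, unadjusted p = 0.140, adjusted p = 0.970, edgeR), with a wide 95% interval from -0.36 to 1.93, and it ran from 0.47 without DMSO 1 to 1.21 without DMSO 2. PSMB9 (beta1i), in an entry that also names the antisense gene PSMB8-AS1, had 0.239 and 0.261 FPKM with DMSO and 0.263 and 0.151 FPKM with SF1-8. Its log2 fold change of -0.25 (standard error 0.369, unadjusted p = 0.523, edgeR) was 0.10 without SF1-8 2. PSMB8 and PSMB9 overlap on opposite strands on chromosome 6, and the sources used here do not say whether the counting used strand, so reads of the overlap cannot be told apart.

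PSMB10 (beta2i) was the most abundant of the set, in an entry that also names CTRL and AC040162. It had 3.18 and 3.22 FPKM with DMSO and 2.93 and 2.85 FPKM with SF1-8, and the groups did not overlap. The estimate of the log2 fold change was -0.12 (standard error 0.105, unadjusted p = 0.302, adjusted p = 0.970, edgeR). PSMB11, the thymus form of beta5, had counts of 0, 2, 0 and 0 and was not tested.

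Set against the standard subunit it replaces, each immune subunit was a small fraction in FPKM. PSMB8 came to 0.176% and 0.248% of PSMB5 with DMSO, and to 0.509% and 0.290% with SF1-8. The PSMB8 entry counts as 4.51 kb against 1.95 kb for PSMB5. Its normalised CPM were 0.483, 0.809, 1.33 and 0.910 in DMSO 1, DMSO 2, SF1-8 1 and SF1-8 2. Those of PSMB5 were 115.1, 138.6, 114.1 and 137.8. PSMB9 came to 0.748% and 0.745% of PSMB6 with DMSO, and to 0.853% and 0.704% with SF1-8. The PSMB9 entry, which also names PSMB8-AS1, counts as 7.12 kb against 1.82 kb for PSMB6. In normalised CPM it had 1.66, 1.90, 1.91 and 1.08 in the 4 libraries, against 56.3, 65.1, 56.9 and 39.4 for PSMB6. PSMB10 came to 5.05% and 4.84% of PSMB7 with DMSO, and to 4.46% and 4.18% with SF1-8. The PSMB10 entry, with the genes merged into it, counts as 8.96 kb against 2.25 kb for PSMB7. The FPKM of this entry is taken over the reads and length of all the genes it names. In normalised CPM, with no length, it had 27.6, 29.5, 26.7 and 25.8 in the 4 libraries, against 136.9, 152.9, 150.2 and 154.7 for PSMB7. In FPKM PSMB8 was relatively higher and PSMB10 relatively lower in both SF1-8 libraries, and PSMB9 overlapped. Of 12 interferon and antigen-presentation genes, 11 were tested, HLA-B and HLA-C as the same entry, and edgeR gave 0 of them an adjusted or an unadjusted p under 0.05, beside the same shares over all entries as for the subunits.

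**Figure D2:**
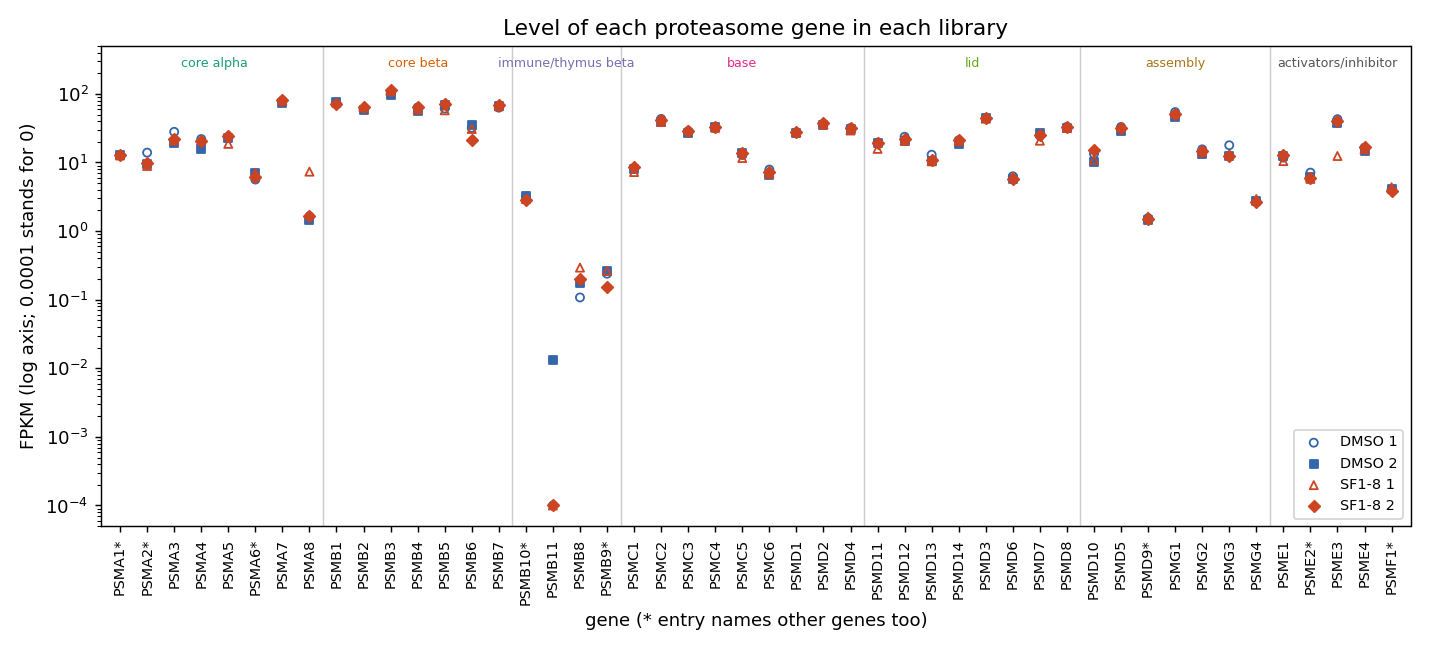
FPKM of each of the 48 proteasome genes (horizontal axis, in groups of subunits) in each of the 4 libraries (symbols), on a log axis where 0.0001 stands for 0 and an asterisk marks an entry that names other genes too. The standard subunits lie between PSMD6 at 6.02 and PSMB3 at 104.8 mean FPKM, the immune subunits PSMB8 and PSMB9 lie far below, and single libraries stand apart at PSMA8 and PSME3.

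The base was the steadiest group. Its 9 genes had a median log2 fold change of 0.01, within -0.04 to 0.10, and all 9 intervals lay within 1.5-fold. PSMC3 (Rpt5), an ATPase of the base ring, had the smallest p of the group, with 28.7 and 27.2 FPKM with DMSO and 29.7 and 28.9 FPKM with SF1-8. Both SF1-8 libraries were slightly above both DMSO libraries. In the fit the log2 fold change came to 0.10 (standard error 0.076, unadjusted p = 0.259, adjusted p = 0.970, edgeR). The mean FPKM of the other ATPases was 40.6 for PSMC2 (Rpt1), 32.4 for PSMC4 (Rpt3), 12.9 for PSMC5 (Rpt6), 8.03 for PSMC1 (Rpt2) and 7.16 for PSMC6 (Rpt4). Among the scaffold subunits mean FPKM was 36.4 for PSMD2 (Rpn1) and 27.2 for PSMD1 (Rpn2), and for the ubiquitin receptor PSMD4 (Rpn10) it was 30.8. PSMD1 and PSMD2, with log2 fold changes of 0.06 each, were higher in both SF1-8 libraries in normalised CPM.

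The lid genes had a median log2 fold change of -0.02, within -0.14 to 0.11, with all 8 intervals within 1.5-fold. PSMD14 (Rpn11), the enzyme that cuts ubiquitin from the substrate, had 21.1 and 18.9 FPKM with DMSO and 20.6 and 21.6 FPKM with SF1-8. Its FPKM values overlapped, but in normalised CPM both SF1-8 libraries, at 192.8 and 200.4, were above the DMSO libraries, at 187.3 and 177.1. This gave a log2 fold change of 0.11 (standard error 0.071, unadjusted p = 0.184, adjusted p = 0.970, edgeR). PSMD7 (Rpn8), the partner of PSMD14, averaged 24.5 FPKM and had a log2 fold change of -0.14. Mean FPKM was 44.2 for PSMD3 (Rpn3), 32.5 for PSMD8 (Rpn12), 21.7 for PSMD12 (Rpn5), 18.4 for PSMD11 (Rpn6), 11.3 for PSMD13 (Rpn9) and 6.02 for PSMD6 (Rpn7). PSMD3, the most abundant lid gene, was nearly level, between 43.5 and 44.7 FPKM in the 4 libraries.

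Among the assembly genes, the core chaperones PSMG1 to PSMG4 and the base chaperones PSMD5, PSMD9 and PSMD10, 6 of 7 had a log2 fold change above 0, with a median of 0.06. The exception, PSMG3 (PAC3), had the smallest p of the group. It had 17.8 and 12.4 FPKM with DMSO and 13.0 and 12.6 FPKM with SF1-8, so that DMSO 1 alone stands above the other libraries. Its log2 fold change of -0.21 (standard error 0.167, unadjusted p = 0.269, adjusted p = 0.970, edgeR) became 0.03 without DMSO 1. PSMD10 (gankyrin) varied within both groups, with 13.4 and 10.2 FPKM with DMSO and 10.9 and 15.1 FPKM with SF1-8. The mean FPKM of the others was 50.9 for PSMG1 (PAC1), 31.5 for PSMD5 (S5b), 14.5 for PSMG2 (PAC2) and 2.79 for PSMG4 (PAC4), and 1.53 for PSMD9 (p27), whose entry also names AC069503 and CFAP251.

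The activators open the barrel in place of the cap. PSME3 (PA28gamma), a nuclear activator, held the largest gap between libraries of 1 group among the genes measured on their own exons. It had 42.8 and 37.6 FPKM with DMSO, 12.4 FPKM in SF1-8 1 and 40.9 FPKM in SF1-8 2. SF1-8 1 was low and SF1-8 2 lay between the DMSO libraries. The 2 SF1-8 libraries differed 3.26-fold, and of the 698 tested entries at least as abundant as PSME3, itself included, 2 had a gap this large between the SF1-8 libraries and 1 between the DMSO libraries. The log2 fold change of PSME3 was -0.56 (standard error 0.523, unadjusted p = 0.329, adjusted p = 0.970, edgeR). Without SF1-8 1 it was 0.05. Without SF1-8 2, which leaves SF1-8 1 to stand for the treatment on the assumption that it varies like the DMSO libraries, it was -1.66 with an adjusted p of 0.0442, the only proteasome gene to pass under any setting tried. PSME3 was named after its values were seen. It lies on chromosome 17 from 42824385 to 42843760 on the plus strand, and BECN1, the autophagy gene whose entry overlaps it on the minus strand, had 3.56, 3.67, 3.58 and 3.47 FPKM in DMSO 1, DMSO 2, SF1-8 1 and SF1-8 2, with no low value in SF1-8 1.

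PSME1 (PA28alpha) and PSME2 (PA28beta) form the activator that interferon induces. PSME1 averaged 11.9 FPKM, with a log2 fold change of -0.03. PSME2, in an entry with MIR7703, had 7.11 and 6.06 FPKM with DMSO and 5.76 and 5.90 FPKM with SF1-8, and both SF1-8 libraries were below both DMSO libraries. The fitted log2 difference was -0.15 (standard error 0.110, unadjusted p = 0.237, adjusted p = 0.970, edgeR), and it was -0.07 without DMSO 1 and -0.22 without DMSO 2. PSME4 (PA200) averaged 15.8 FPKM with a log2 fold change of 0.09, and the inhibitor PSMF1 (PI31), in an entry that names 2 further genes, averaged 4.06 FPKM with a log2 fold change of 0.04.

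**Figure D3:**
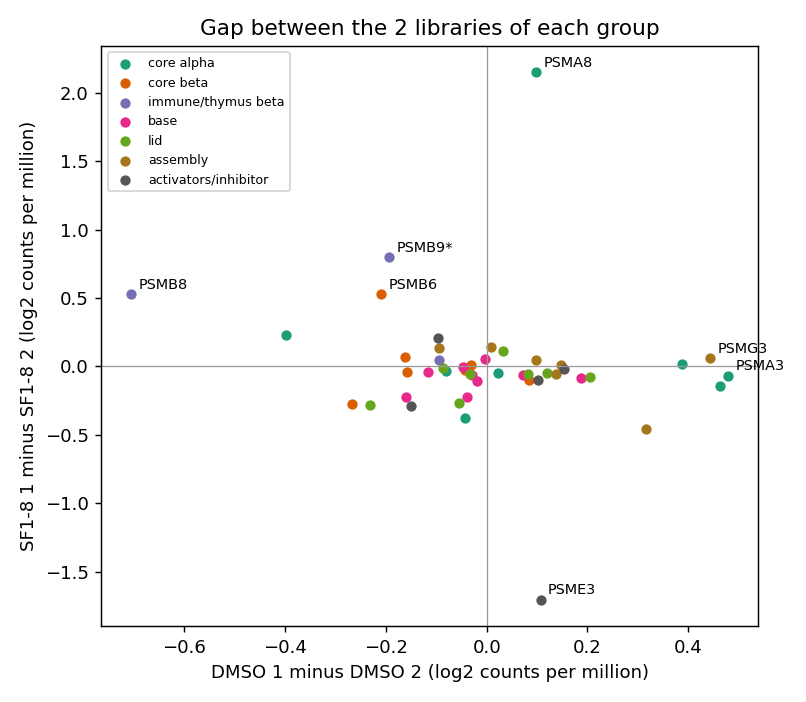
Gap between the 2 DMSO libraries (horizontal axis) and between the 2 SF1-8 libraries (vertical axis) for the 47 tested proteasome genes, in log2 CPM, coloured by group of subunits. Most genes lie near the origin, while PSMA8 at 2.15 and PSME3 at -1.71 stand apart on the SF1-8 axis only.

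Summed over a group, the levels were nearly the same in all libraries but for the activators. The core beta genes summed to 1138, 1212, 1226 and 1239 normalised CPM in DMSO 1, DMSO 2, SF1-8 1 and SF1-8 2, and the base genes to 1088, 1100, 1090 and 1143. The lid genes summed to 1125, 1131, 1086 and 1148. The SF1-8 libraries enclose or overlap the DMSO libraries in the base and the lid, and lie just above them in the core beta group. The activators and inhibitor summed to 603, 573, 410 and 613, where the low value is the library in which PSME3 was low.

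**Figure D4:**
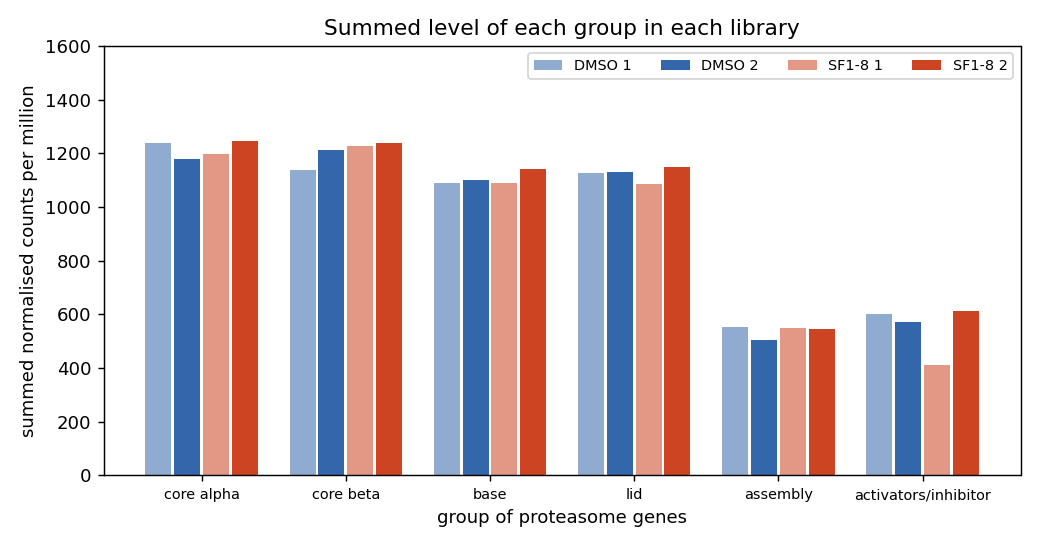
Normalised CPM summed over the genes of each group of subunits (horizontal axis) in each library (bars), without the immune and thymus beta genes, whose sums lie between 27.8 and 32.2. The bars of a group are nearly level, except for SF1-8 1 in the activators and inhibitor at 410.

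Although the subunits of the core, base and lid enter the particle in fixed proportions, their RNA levels per kb were far apart. The size of the span and the lowest gene depend on the length used. Among the 28 such subunits with an entry of their own, mean FPKM ran from 6.02 for PSMD6 to 104.8 for PSMB3, a 17.4-fold span. FPKM here is per length of all annotated exons of an entry joined together, which lowers it for genes with many alternative exons. CPM per kb of the principal transcript ran from 15.0 for PSMC1 to 221.7 for PSMB1, a 14.8-fold span. This scale also rests on the annotated length. PSMC1 was divided by 4448 bases, and PSMC5, another ATPase of the base, by 1579 bases. In normalised CPM, with no length, the libraries of PSMC1 overlapped those of PSMC5, so PSMC1 is lowest only per length. By FPKM and by CPM per kb the core beta genes were the most abundant group. Their median was 151.7 CPM per kb, against 67.0 for the 4 core alpha genes with an entry of their own, 53.5 for the base and 49.0 for the lid. In the order of FPKM, PSMB3 was above PSMA7 in all libraries, whereas PSMA7 and PSMB1 overlapped, as did PSMB7, PSMB5, PSMB2 and PSMB4, each with the next. From PSMD2 down to PSMD13 the range of each gene over the libraries overlapped that of its neighbour, so that ranges alone do not order neighbours there. Genes further apart in this stretch can still be ordered. PSMD2, between 35.3 and 37.8 FPKM, lay wholly above PSMD13, between 10.4 and 13.0 FPKM.

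The genes of proteins that work with the proteasome did not pass the test either. The 32 associated genes include those for ubiquitin itself, ubiquitin shuttles, deubiquitinases and factors that make or regulate the particle. They also include ADRM1 and SEM1, counted with the associated genes here because of their symbols. All 32 were tested, and edgeR gave 0 of them an adjusted or an unadjusted p under 0.05. The shares over all entries were 0.042% and 4.33%, so that these counts are near the background. With no filter on low counts, 1 passed the unadjusted threshold. The median log2 fold change was 0.04, and both SF1-8 libraries were above both DMSO libraries for 9 genes and below them for 1, where 17.3% and 18.1% of all entries did so. NFE2L1, the factor named above, had 19.5 ± 2.09 FPKM (SD, n = 2) with DMSO and 21.1 ± 2.03 FPKM (SD, n = 2) with SF1-8, and its groups overlap.

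Among the 3 associated genes with the smallest p were UBQLN1 and POMP. UBQLN1, a shuttle that carries tagged proteins to the proteasome, had 17.6 and 13.9 FPKM with DMSO and 17.5 and 18.9 FPKM with SF1-8, with DMSO 2 the low library. The estimate of the log2 fold change was 0.24 (standard error 0.108, unadjusted p = 0.0779, adjusted p = 0.970, edgeR), and it was 0.12 without DMSO 2, 0.37 without DMSO 1 and 0.079 with FPKM rescaled to TPM. POMP, the chaperone that matures the core, had 56.1 and 54.0 FPKM with DMSO and 57.1 and 62.3 FPKM with SF1-8, both SF1-8 libraries being the higher. This gave a log2 fold change of 0.14 (standard error 0.079, unadjusted p = 0.128, edgeR), and it was -0.02 with FPKM rescaled to TPM, beside the same shift.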

How the data were processed

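Per the labels, ribosomal RNA was removed from total RNA, TruSeq libraries were made, and the submitters' processing notes name cutadapt, FastQC, Bowtie2, HISAT2 and StringTie with the build hg38. Their settings, strand option and versions are not given in the sources used here. For 64873 entries the authors deposited FPKM and estimated counts in each library, with 0.0001 FPKM in place of 0. Entries with no gene name (2095, with 0.37% of all counts) were not used. Of the 48 genes, 8 stand in entries naming other genes and 11 have more than 1 entry. Estimated counts, deposited as whole numbers, were normalised by TMM, filtered by filterByExpr and fitted by group with edgeR 4.0.16 (quasi-likelihood, two-sided, Benjamini-Hochberg over 26167 entries) in R 4.3.3, with DESeq2 1.42.0, limma 3.58.1 and other settings as alternatives. The script was tested on simulated data. Annotation is GENCODE version 29. The members and lists were chosen with earlier results of these data known. Statistics are given for PSMA1, the catalytic and immune subunits, the smallest p of each group, every member with an unadjusted p under 0.05, and the 3 associated genes with the smallest p, of which 1 is not reported here. Depth ran from 45522905 to 67554610 counts, and having 2 libraries a group limits precision.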

Additional observations from a re-analysis of the deposited data

How the results depend on the processing

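With 2 libraries a group, precision rests on the spread between them, and the median standard error of a member was 0.097 on the log2 scale. The count of members at an adjusted p under 0.05 was 0, and 0 to 1 with 1 library left out (PSME3, without SF1-8 replicate 2). The count at an unadjusted p under 0.05 was 2, and was 0 with DESeq2, 0 with limma on log2(FPKM + 1), 0 with a pseudocount of 0.1, 1 with counts divided by 4, 1 with upper-quartile normalization, 1 with TPM, and 1 to 3 with 1 library left out. The labels do not say whether the replicate numbers pair the samples. Same-numbered libraries deviated with a correlation of 0.016 over all entries and -0.16 over the members. These values show little shared deviation but cannot decide whether the samples were handled in pairs. With the number as a block the count was 0 at an unadjusted p and 0 at an adjusted p, and all entries past the adjusted threshold went from 11 to 0. Over all entries DESeq2 gave 163, no filter 31, limma 1 with a pseudocount of 1 and 0 with 0.1, and leaving out a library 0 to 20. The associated genes had 1 at an unadjusted p with no filter, and 0 to 1 with 1 library left out.

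The median log2 fold change of all members was 0.03, and 0.0046 and 0.0047 with limma on FPKM at pseudocounts of 1 and 0.1. With TPM the medians were -0.13 for all members, -0.10 for core alpha, -0.10 for core beta, -0.15 for the base, -0.18 for the lid, -0.10 for assembly and -0.19 for activators, beside a shift of -0.14 in all entries. TPM also turned POMP to -0.020, PSMA1 to -0.12, PSMB2 to -0.0056, PSMB7 to -0.086, PSMC3 to -0.065 and PSMD14 to -0.051. With entries naming 1 gene only, the median was 0.10 for core alpha and 0.78 for the immune subunits, where PSMB8 alone is left. The lid was at -0.042 with limma on log2(FPKM + 0.1). With 1 library left out the medians ran from -0.17 to 0.10 for the immune subunits, -0.034 to 0.064 for the base and -0.16 to 0.0499 for the activators. In the same way PSMA1 ran from -0.0034 to 0.078, PSMB5 from -0.15 to 0.13, PSMB7 from -0.0050 to 0.16, PSMB9 from -0.72 to 0.10, PSME3 from -1.66 to 0.0499 and PSMG3 from -0.41 to 0.030. With the direction kept, the ranges were -0.62 to -0.09 for PSMB6, 0.47 to 1.21 for PSMB8, -0.17 to -0.07 for PSMB10, 0.07 to 0.15 for PSMD14, -0.22 to -0.07 for PSME2, 0.13 to 2.29 for the PSMA8 entry, 0.12 to 0.37 for UBQLN1 and 0.09 to 0.20 for POMP. Of 228 values of the 18 named genes under alternatives, 215 kept their direction. Leaving out the PSMA8 entry, an alternative chosen after seeing the data, changed no count of calls by p-value. It left 27 members with a log2 fold change above 0, and 8 with the SF1-8 pair wholly above the DMSO pair. Beyond the TPM scale and the libraries named, the cause of these differences was not tested.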
